A study of Homo sapiens with 6 samples.

Results

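The genes described here are the DNA repair genes of H9 cells, an established line of human embryonic stem cells, and of neurons made from them. They were taken by symbol, as the Fanconi (FANC), BRCA, RAD50 to RAD54, XRCC, ERCC, MSH, MLH and PARP families and single genes such as ATM, PRKDC and POLQ. The rule matched 69 protein-coding entries among the 61853 entries of the deposited table. Total RNA depleted of ribosomal RNA was sequenced in 3 libraries from day 30 and 3 from day 0 of differentiation. Day 30 cells were labelled as arcuate neurons, nerve cells of the hypothalamus that regulate feeding. Per the labels' protocols they had received sonic hedgehog, purmorphamine, SB431542 and LDN-193189, then B-27 and DAPT, a ROCK inhibitor at replating, and at last BDNF. Day 0 cells were H9 cells. All libraries came from this line, and no genotype is given as different between them. Whether the 3 libraries of a day came from separate cultures is not stated, so p-values measure the spread between these libraries, which may be technical.

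Total counts ran from 5013643 to 12924842 in the day 30 libraries and from 7178453 to 8794008 in the day 0 libraries. The labels were checked against marker genes. All 6 neuronal markers and all 6 tested arcuate markers were higher on day 30, and POMC had a mean of 1560 ± 333 CPM on day 30, against 0.986 ± 0.264 CPM on day 0 (CPM, counts scaled to a common library total; SD, n = 3 per day). NPY and AGRP, which mark another arcuate cell type, had means of 0.623 and 0.245 CPM on day 30 and no reads on day 0. All 6 pluripotency markers were lower on day 30. The summed level of 6 neural progenitor markers was 976 to 1200 CPM on day 30 and 1380 to 2110 CPM on day 0, so their RNA was still present on day 30. The summed level of 6 mesenchymal markers ranged from 171 to 4600 CPM on day 30 and from 218 to 313 CPM on day 0. The highest sum was in day 30 replicate 3, where COL1A1 had 1810 CPM. The summed level of 5 astroglial markers was 3.33 to 12.6 CPM on day 30 and 42.0 to 46.7 CPM on day 0. All 13 proliferation genes were lower on day 30, with a summed level of 105 to 148 CPM on day 30 and 3120 to 3200 CPM on day 0. The part of these cell mixtures in the results on repair genes was not tested, and in bulk RNA fewer cells of a type and less RNA per cell cannot be told apart.

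DNA repair is divided among pathways that meet different lesions. Homologous recombination, with the BRCA proteins, copies a sister chromatid and so belongs to cells that have replicated their DNA. The Fanconi pathway opens cross-linked strands at replication forks, and mismatch repair corrects copying errors. Non-homologous end joining rejoins broken ends without a template, base excision repair removes damaged bases, and nucleotide excision repair removes bulky lesions and clears stalled RNA polymerase from transcribed genes. These last pathways also serve neurons, which no longer divide.

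Most of the repair genes were lower on day 30, and a minority were higher. Of the 69 genes, 65 had enough reads to be tested, of which 44 fell, 12 rose and 9 did not pass (edgeR quasi-likelihood test, adjusted p under 0.05 over all genes). Falls made up 67.7% of tested repair genes, against 36.8% of all 18040 tested genes and 40.3% of tested protein-coding genes. Rises made up 18.5%, against 39.8% of all tested genes and 38.2% of protein-coding ones. Either call was made for 86.2% of the repair genes and for 76.6% of all tested genes. The median log2 change of the repair genes (day 30 over day 0) was -1.40, with quartiles of -3.08 and -0.14, and that of all tested genes was 0.08. Falls of 2-fold or more were seen for 38 repair genes (58.5%, against 24.7% of all tested genes), and rises of 2-fold or more for 4, where 29.7% of all tested genes rose that far. The CPM ranges of the days did not overlap for 57 repair genes (87.7%, against 79.4% of all tested genes). Together the repair genes held 0.328% to 0.350% of counts in the day 30 libraries and 0.704% to 0.752% in the day 0 libraries.

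**Figure D1:**
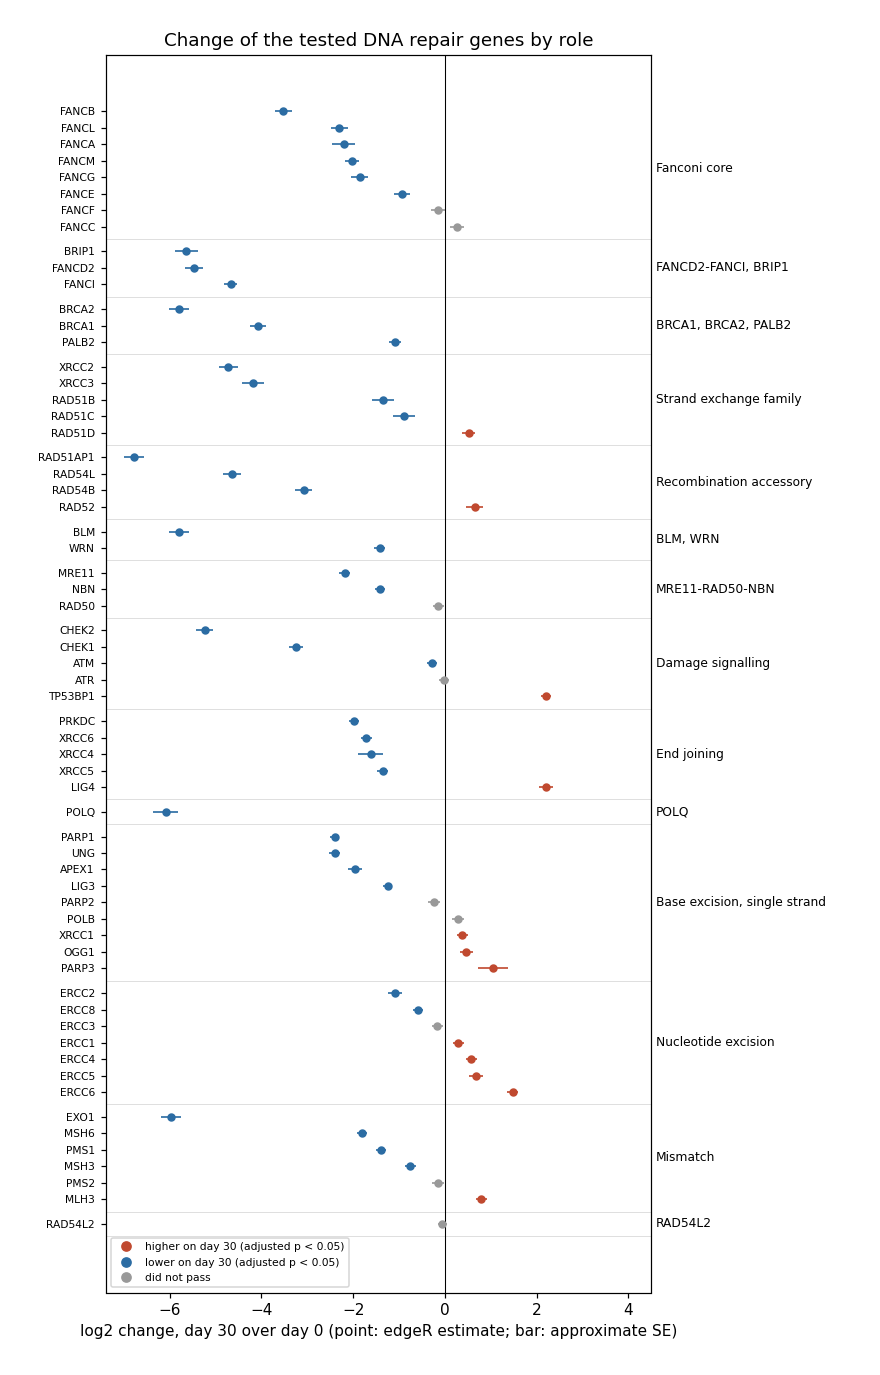
Log2 change of 62 of the 65 tested repair genes (day 30 over day 0, x axis), grouped by role and ordered by change within it; points are edgeR estimates, bars approximate standard errors, and colours the call. Values run from -6.78 for RAD51AP1 to 2.21 for LIG4, and the plotted genes below -5 are RAD51AP1, POLQ, EXO1, BRCA2, BLM, BRIP1, FANCD2 and CHEK2.

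Recombination genes were among those that fell most. BRCA2, a mediator that brings the strand exchange machinery to DNA, had 2.06, 1.62 and 3.79 CPM on day 30, against 124, 113 and 118 CPM on day 0. The groups lay far apart, and the day 30 values rested on 60 counts in all, against 2814 on day 0. Its log2 change was -5.80 ± 0.21 (SE; adjusted p = 2.91e-09). BRCA2 lies on chromosome 13, 32315474 to 32400266, plus strand (hg38). BRCA1, which promotes trimming of the broken end and recruits PALB2, had 3.41, 4.02 and 5.98 CPM on day 30, against 72.4, 66.6 and 65.6 CPM on day 0 (log2 change -4.08 ± 0.17). For both BRCA genes all day 30 libraries were far below all day 0 libraries, with day 30 replicate 3 the highest of its day. PALB2, the bridge between the BRCA proteins, fell less, with 20.4, 25.5 and 26.7 CPM on day 30 against 48.3, 47.6 and 48.0 CPM on day 0 (log2 change -1.09 ± 0.13).

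The genes RAD51B, RAD51C, RAD51D, XRCC2 and XRCC3, whose proteins form small complexes that assist strand exchange, moved by unequal amounts. XRCC2 and XRCC3 fell by 4.72 and 4.18 on the log2 scale, RAD51B by 1.34 and RAD51C by 0.89. RAD51D, a partner of XRCC2, was higher, with 24.4, 25.4 and 27.5 CPM on day 30 against 16.5, 18.9 and 15.0 CPM on day 0 (log2 change 0.52 ± 0.14, adjusted p = 0.00556). A readthrough gene shares 8.01% of RAD51D's exon bases on the same strand, and with the reads of that gene added, a setting chosen after seeing the data, RAD51D was at 0.26 and did not pass (adjusted p = 0.0606, range over the settings tried 0.00245 to 0.0606). Among the accessory factors, RAD51AP1, which stimulates strand invasion, had the largest fall of the repair genes, with 0.516, 0.309 and 0.598 CPM on day 30 against 45.9, 46.4 and 47.8 CPM on day 0 (log2 change -6.78 ± 0.22). The translocases RAD54L and RAD54B, which remodel the recombining strands, fell by 4.64 and 3.08. RAD54B shares 59.08% of its exon bases with FSBP on the same strand, and it was at -2.68 with those reads added. RAD52, which anneals single strands, was the exception, with 18.6, 21.2 and 29.1 CPM on day 30 against 15.6, 11.4 and 13.4 CPM on day 0. It rose by 0.65 ± 0.18 on the log2 scale (adjusted p = 0.00746).

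Helicases and nucleases of recombination followed. BLM, the helicase that dissolves recombination intermediates, had 1.14, 1.32 and 2.59 CPM on day 30, against 84.3, 75.4 and 80.1 CPM on day 0 (log2 change -5.80 ± 0.21). WRN, a related helicase, had 33.8, 37.9 and 42.1 CPM on day 30, against 106, 89.7 and 88.4 CPM on day 0, and its fall of 1.42 left it the higher of this pair on day 30. The MRE11-RAD50-NBN complex senses broken ends and starts their trimming, and its subunits did not move alike. The nuclease MRE11 fell by 2.18 ± 0.12, to 18.4, 18.1 and 16.6 CPM on day 30 against 84.3, 73.6 and 69.1 CPM on day 0. NBN, the subunit that recruits ATM, fell by 1.41 ± 0.11, to 29.6, 31.6 and 30.9 CPM on day 30 against 78.0, 78.3 and 73.2 CPM on day 0. RAD50, the tethering subunit, had 46.2, 49.7 and 51.9 CPM on day 30 and 57.7, 46.9 and 48.0 CPM on day 0, with overlapping ranges, and did not pass (log2 value -0.14 ± 0.11, adjusted p = 0.286). RAD50 shares 79.66% of its exon bases with a readthrough gene, whose reads put it at -0.17 when added.

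The FANC genes and BRIP1 fell by unequal amounts, and not all of them passed. FANCD2 and FANCI, the pair that is ubiquitinated and clamps onto DNA, and BRIP1, the helicase that works with BRCA1, all fell by more than 4 on the log2 scale. FANCD2 had 2.89, 4.64 and 5.78 CPM on day 30, against 183, 174 and 180 CPM on day 0 (log2 change -5.47 ± 0.19). FANCI had a log2 change of -4.67 ± 0.14. BRIP1 had 1.34, 1.55 and 3.19 CPM on day 30, against 88.4, 71.3 and 96.8 CPM on day 0 (log2 change -5.64 ± 0.25). None of these 3 genes had overlapping ranges. The core group includes the FANCM translocase and the complex that ubiquitinates FANCD2. Of its 8 genes 6 fell and 0 rose, where 36.8% of all tested genes fell and 39.8% rose. These falls were smaller, from -3.52 for FANCB to -0.93 for FANCE, with FANCA at -2.21, FANCM at -2.03 and FANCG at -1.86. ZNF276, which rose by 1.32, covers 23.64% of the exon bases of FANCA on the opposite strand. FANCB, a structural subunit, had 3.10, 4.72 and 5.19 CPM on day 30, against 48.6, 44.3 and 45.1 CPM on day 0. FANCL, the ubiquitin ligase itself, had 37.9, 37.5 and 51.1 CPM on day 30, against 259, 182 and 144 CPM on day 0 (log2 change -2.30 ± 0.19). FANCL varied widely between the day 0 libraries, but its ranges stayed apart. FANCF, an adaptor, had 21.5, 22.1 and 16.6 CPM on day 30 and 21.8, 21.2 and 20.6 CPM on day 0, and did not pass (log2 value -0.15, adjusted p = 0.381). FANCC did not pass either, with 23.4, 27.8 and 30.3 CPM on day 30 and 22.7, 23.4 and 17.7 CPM on day 0 (log2 value 0.26, adjusted p = 0.129).

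**Figure D2:**
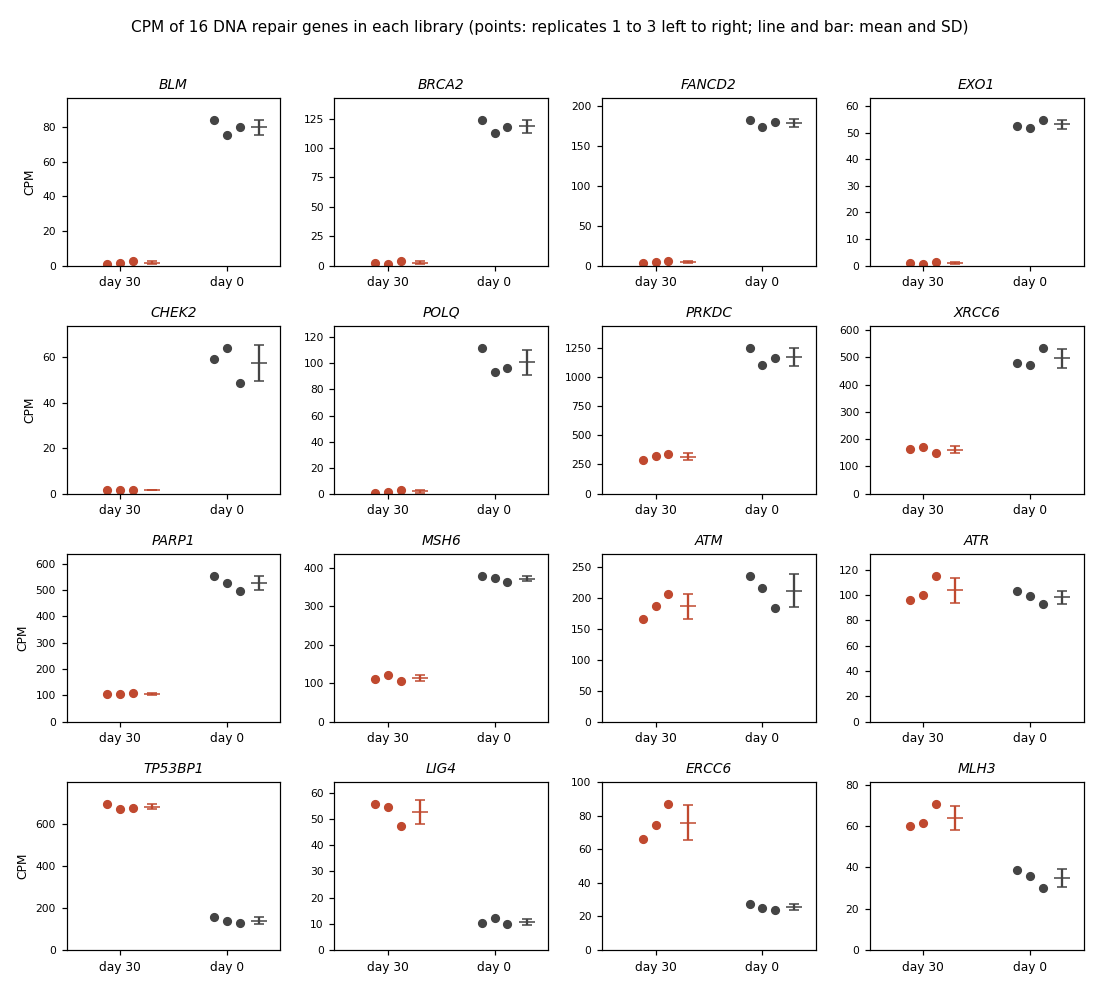
CPM (y axis, starting at 0) of 16 repair genes in each library, day 30 left of day 0; points are replicates 1 to 3 and lines with bars the mean and SD (n = 3). BLM, BRCA2, FANCD2, EXO1, CHEK2 and POLQ sit near 0 on day 30, PRKDC, XRCC6, PARP1 and MSH6 keep a part of their day 0 level, ATM and ATR overlap between the days, and TP53BP1, LIG4, ERCC6 and MLH3 are higher on day 30.

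Altogether 14 repair genes fell by 4 or more on the log2 scale (21.5% of those tested, against 4.51% of all tested genes). Among them were RAD51AP1, POLQ, EXO1, BRCA2, BLM, BRIP1, FANCD2, CHEK2, XRCC2, FANCI, RAD54L, XRCC3 and BRCA1. The mean levels of these 13 genes were 0.475 to 5.65 CPM on day 30 and reached 179 CPM on day 0, for FANCD2. In 12 of the 14 genes the highest day 30 library was replicate 3. It was also the highest in 18 of 30 repair genes with smaller falls and in 6 of 12 that rose. How often it was the highest among all tested genes was not counted, so these counts may not be particular to repair genes. Replicate 3 of day 30 had the lowest total count, 5013643. That library also had the most of the proliferation marker MKI67, at 18.0 CPM, against 6.61 and 7.58 CPM in the other day 30 libraries, and the most mesenchymal marker RNA. Their part in the residual levels was not tested. Without that library 43 repair genes fell and 12 rose.

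Promoter sequences were compared because many genes of DNA replication and recombination are bound near their start by E2F factors, the regulators of S phase entry. RefSeq windows from 250 bases before to 50 after a start (GRCh38.p14) were found for 58 of the 69 genes. The words TTTCCCGC, TTTCGCGC, TTTGCCGC and TTTGGCGC, which are forms of the E2F site, were searched on both strands. A word was present in 10 of the 58 genes (17.2%), against 6.38% of 11185 tested protein-coding genes and 3.99% of all 27305 genes of the same windows. It was present in 3 of 12 genes that fell by 4 or more on the log2 scale, in 5 of 23 with smaller falls, in 2 of 8 that did not pass and in 0 of 12 that rose. The share was 25.0% both in the steep falls and in the genes that did not pass, on few genes. Other words were searched on both strands as well. TTTGAA, the core of the cell cycle element CHR, was present in 15.5% of the repair genes and 14.1% of tested protein-coding genes, in 2 of 12 of the steep falls, 2 of 23 of the smaller falls, 1 of 8 that did not pass and 3 of 12 that rose. CCAAT, the box bound by NF-Y, was present in 53.4% of the repair genes and 43.2% of tested protein-coding genes, in 7 of 12, 14 of 23, 2 of 8 and 5 of 12 of the same classes. A match is a description and not a site, and genes with several starts had more than 1 window. The windows of 6 genes are shown as examples, with the words in capitals. They do not reflect the shares above. All 3 steep falls with a word are among them, but none of the genes that did not pass, of which 2 of 8 have a word. FANCD2, XRCC2 and EXO1 fell steeply and have a word close to the start. MSH3, which fell by less than 1 on the log2 scale, has overlapping words on opposite strands that merge into 1 run. BLM fell steeply and TP53BP1 rose, and neither window has a word, although the letters of other forms of the site were not searched.
FANCD2, chr3:10026187-10026486, plus strand: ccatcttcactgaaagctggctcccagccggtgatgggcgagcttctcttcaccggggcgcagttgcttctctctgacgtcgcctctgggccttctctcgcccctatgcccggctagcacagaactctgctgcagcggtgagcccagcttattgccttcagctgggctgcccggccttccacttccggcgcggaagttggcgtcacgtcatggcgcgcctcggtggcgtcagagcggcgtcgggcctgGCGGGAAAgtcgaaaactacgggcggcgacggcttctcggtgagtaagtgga
XRCC2, chr7:152676092-152676391, minus strand: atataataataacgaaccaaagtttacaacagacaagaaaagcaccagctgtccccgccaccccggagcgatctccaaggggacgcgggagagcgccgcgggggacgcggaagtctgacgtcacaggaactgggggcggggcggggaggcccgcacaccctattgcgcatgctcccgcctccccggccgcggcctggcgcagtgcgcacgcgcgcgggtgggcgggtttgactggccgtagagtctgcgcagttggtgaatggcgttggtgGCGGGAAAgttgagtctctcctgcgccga
EXO1, chr1:241847954-241848253, plus strand: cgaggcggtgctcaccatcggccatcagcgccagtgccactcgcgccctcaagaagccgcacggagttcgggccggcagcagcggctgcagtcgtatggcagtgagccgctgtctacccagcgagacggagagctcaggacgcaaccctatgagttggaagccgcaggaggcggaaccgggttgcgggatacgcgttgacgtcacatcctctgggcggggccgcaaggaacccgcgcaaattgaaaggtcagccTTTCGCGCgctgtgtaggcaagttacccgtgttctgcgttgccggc
MSH3, chr5:80654402-80654701, plus strand: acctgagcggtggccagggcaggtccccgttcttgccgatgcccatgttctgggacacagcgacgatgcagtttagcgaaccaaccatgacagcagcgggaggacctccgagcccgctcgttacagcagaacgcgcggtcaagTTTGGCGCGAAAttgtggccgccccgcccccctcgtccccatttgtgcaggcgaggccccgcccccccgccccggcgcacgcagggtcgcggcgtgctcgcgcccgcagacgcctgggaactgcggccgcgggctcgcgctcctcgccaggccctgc
BLM, chr15:90717096-90717395, plus strand: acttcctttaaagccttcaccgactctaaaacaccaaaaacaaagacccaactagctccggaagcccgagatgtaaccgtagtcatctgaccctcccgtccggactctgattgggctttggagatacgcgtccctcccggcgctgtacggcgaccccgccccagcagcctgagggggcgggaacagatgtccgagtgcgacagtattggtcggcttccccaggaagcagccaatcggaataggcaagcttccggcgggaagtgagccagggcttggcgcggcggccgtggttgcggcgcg
TP53BP1, chr15:43510591-43510890, minus strand: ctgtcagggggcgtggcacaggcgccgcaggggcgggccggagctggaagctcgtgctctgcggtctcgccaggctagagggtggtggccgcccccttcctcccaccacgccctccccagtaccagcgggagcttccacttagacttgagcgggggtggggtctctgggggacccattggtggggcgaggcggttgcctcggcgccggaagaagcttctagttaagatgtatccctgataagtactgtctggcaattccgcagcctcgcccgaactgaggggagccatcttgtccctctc

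In damage signalling, ATM and ATR differed little between the days, while CHEK1 and CHEK2, the kinases they activate, fell. ATM, the kinase activated by DNA breaks, had 166, 188 and 206 CPM on day 30 and 236, 217 and 184 CPM on day 0. The ranges overlapped and the call was marginal, at -0.28 ± 0.11 (adjusted p = 0.0442, range over the settings tried 0.0168 to 0.194). ATM did not pass without day 0 replicate 1 (adjusted p = 0.0696), day 0 replicate 2 (0.0983), day 30 replicate 1 (0.135) or day 30 replicate 2 (0.117). ATR, which responds to single-stranded DNA at stalled forks, had 95.8, 100 and 115 CPM on day 30 and 103, 98.8 and 92.9 CPM on day 0. Its log2 value of -0.02 ± 0.10 did not pass, and its sign turned when libraries were scaled by their totals only, under other choices of the genes tested and when 1 library was left out. The ranges of the effector kinases were far apart. CHEK2, a target of ATM, had 1.55, 1.62 and 1.60 CPM on day 30, against 59.3, 64.2 and 48.7 CPM on day 0 (log2 change -5.24 ± 0.18). CHEK1, a target of ATR, had 9.29, 11.7 and 10.8 CPM on day 30, against 87.4, 96.3 and 101 CPM on day 0 (log2 change -3.25 ± 0.15).

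TP53BP1 had, with LIG4, the largest rise of the repair genes. It encodes a chromatin reader that protects broken ends from trimming and so favours end joining over recombination. It had 695, 673 and 675 CPM in the day 30 libraries, against 156, 136 and 126 CPM in the day 0 libraries. The groups were widely separated with little spread on day 30, and the log2 change was 2.20 ± 0.11 (adjusted p = 2.15e-08). TP53BP1 (chromosome 15, 43403061 to 43510728, minus strand) made up 20.0% of all repair gene CPM on day 30, against 1.94% on day 0. On the opposite strand TUBGCP4 covers 28.73% of its exon bases but had at most 35.3 CPM in a library. The start of MAP1A, a gene for a neuronal microtubule protein, lies 230 bases away in the other direction, and MAP1A rose by 5.85 on the log2 scale.

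Of 5 end joining genes 4 fell and 1 rose, where 36.8% of all tested genes fell and 39.8% rose. PRKDC, the catalytic subunit of the DNA-dependent kinase that holds ends together, had 288, 322 and 342 CPM on day 30, against 1250, 1100 and 1160 CPM on day 0 (log2 change -1.98 ± 0.11). The Ku subunits, which ring the broken end, fell by similar amounts. XRCC6 (Ku70) had 164, 172 and 149 CPM on day 30, against 481, 472 and 535 CPM on day 0 (log2 change -1.71 ± 0.12), and XRCC5 (Ku80) had 311, 322 and 299 CPM on day 30, against 732, 722 and 794 CPM on day 0 (-1.36 ± 0.11). In spite of these falls XRCC5 and XRCC6 ranked 1 and 3 among the repair genes per exon length on day 30. XRCC4 and LIG4 encode the scaffold and the ligase of 1 complex that seals the ends, and their RNAs moved in opposite directions. XRCC4 had 5.16, 3.95 and 2.59 CPM on day 30, against 9.41, 12.7 and 12.8 CPM on day 0 (log2 change -1.62 ± 0.28). LIG4 had 55.8, 54.8 and 47.5 CPM on day 30, against 10.4, 12.1 and 9.78 CPM on day 0 (log2 change 2.21 ± 0.15, adjusted p = 1.99e-07). Neither gene had overlapping ranges. POLQ, the polymerase of an alternative joining route that uses short matching sequences, had 0.722, 1.55 and 2.99 CPM on day 30, against 112, 93.6 and 96.8 CPM on day 0 (log2 change -6.09 ± 0.27).

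Base excision and single-strand repair genes moved in both directions, with 4 of 9 lower, 3 higher and 2 not passing. These shares are near those of all tested genes, 36.8% lower and 39.8% higher, so the counts say nothing particular to the group. PARP1, the main sensor of strand breaks, had 105, 104 and 111 CPM on day 30, against 554, 528 and 498 CPM on day 0 (log2 change -2.40 ± 0.10). UNG, which removes uracil from DNA, had 23.9, 23.8 and 24.9 CPM on day 30, against 118, 114 and 127 CPM on day 0 (-2.40 ± 0.12). APEX1, the nuclease that cuts at the emptied site, had 51.9, 49.2 and 46.7 CPM on day 30, against 151, 191 and 197 CPM on day 0 (-1.96 ± 0.15). LIG3, which seals the gap, had 59.5, 60.9 and 65.6 CPM on day 30, against 142, 140 and 133 CPM on day 0 (-1.25 ± 0.10). In these 4 genes each day 30 library was below each day 0 library. The gap-filling polymerase POLB had 37.3, 30.0 and 33.3 CPM on day 30, against 26.8, 25.5 and 24.8 CPM on day 0. Its ranges were apart but it did not pass (log2 value 0.29 ± 0.13, adjusted p = 0.0645), and it passed under 3 of the other settings. PARP2, a close relative of PARP1, had 24.9, 28.5 and 26.7 CPM on day 30 and 33.1, 26.9 and 28.1 CPM on day 0, and did not pass (log2 value -0.23, adjusted p = 0.129).

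The 3 rises in this group were small or rested on few reads. XRCC1, the scaffold of single-strand break repair, had 33.2, 32.9 and 32.3 CPM on day 30, against 25.8, 22.3 and 23.2 CPM on day 0 (log2 change 0.38 ± 0.12, adjusted p = 0.0151, range over the settings tried 0.0049 to 0.0871). It did not pass with DESeq2 (0.0871), without day 0 replicate 2 (0.0764) or without day 30 replicate 1 (0.0683). OGG1, which removes oxidised guanine, had 22.8, 27.2 and 32.1 CPM on day 30, against 20.0, 17.4 and 18.0 CPM on day 0 (log2 change 0.47 ± 0.15, adjusted p = 0.0135, range over the settings 0.0058 to 0.0601). It did not pass with DESeq2 (0.0529) or without day 0 replicate 2 (0.0601), and CAMK1, which rose by 1.91, covers 24.96% of its exon bases on the opposite strand. PARP3 had 5.99, 4.26 and 5.98 CPM on day 30, against 3.22, 2.79 and 1.36 CPM on day 0, from 143 counts in all on day 30 and 57 on day 0. Its log2 change was 1.05 ± 0.33 (adjusted p = 0.0134, range 0.00435 to 0.0539), and it did not pass without day 30 replicate 1 (0.0539).

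Of 7 nucleotide excision repair genes 4 rose, 2 fell and 1 did not pass, with a median log2 change of 0.29. Rises also outnumbered falls among all tested genes, at 39.8% against 36.8%, so on 7 genes the count sets the group apart in no tested way. ERCC6 (CSB), the remodeller that acts where RNA polymerase is stalled at a lesion, rose most. It had 66.0, 74.6 and 87.0 CPM on day 30, against 27.3, 25.1 and 23.7 CPM on day 0 (log2 change 1.48 ± 0.12, adjusted p = 1.16e-06; chromosome 10, 49455368 to 49539538, minus strand). Its partner in the same step, ERCC8 (CSA), was lower, with 39.4, 37.8 and 45.3 CPM on day 30 against 62.5, 56.4 and 52.3 CPM on day 0 (-0.58 ± 0.11). The ranges of both genes were apart. The nucleases that cut out the damaged stretch were higher. ERCC4 (XPF) had 42.1, 42.6 and 43.9 CPM on day 30, against 27.3, 25.2 and 28.0 CPM on day 0 (0.58 ± 0.12). ERCC5 (XPG) had 38.5, 43.6 and 35.5 CPM on day 30, against 21.4, 27.7 and 20.5 CPM on day 0 (0.68 ± 0.16), and shares 63.25% of its exon bases with the readthrough gene BIVM-ERCC5, with whose reads it was at 0.70. ERCC1, the partner of ERCC4, had 36.4, 36.4 and 33.9 CPM on day 30, against 29.5, 26.1 and 26.7 CPM on day 0, a marginal log2 change of 0.29 ± 0.12 (adjusted p = 0.0473, range over the settings 0.0131 to 0.206). It did not pass with DESeq2 (0.206), nor without day 0 replicate 1 (0.0814), 2 (0.177) or 3 (0.0779), nor without day 30 replicate 1 (0.169) or 2 (0.129). POLR1G, which fell by 3.48 on the log2 scale, covers 28.57% of the exon bases of ERCC1 on the opposite strand. The helicases of the TFIIH complex, which open the strands, did not rise. ERCC2 (XPD) fell by 1.08 ± 0.15, with 45.3, 41.2 and 39.9 CPM on day 30 against 93.6, 93.9 and 64.8 CPM on day 0, and ERCC3 (XPB) did not pass, with 47.6, 50.4 and 60.8 CPM on day 30 and 64.2, 52.7 and 49.9 CPM on day 0 (-0.17 ± 0.12, adjusted p = 0.243).

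**Figure D3:**
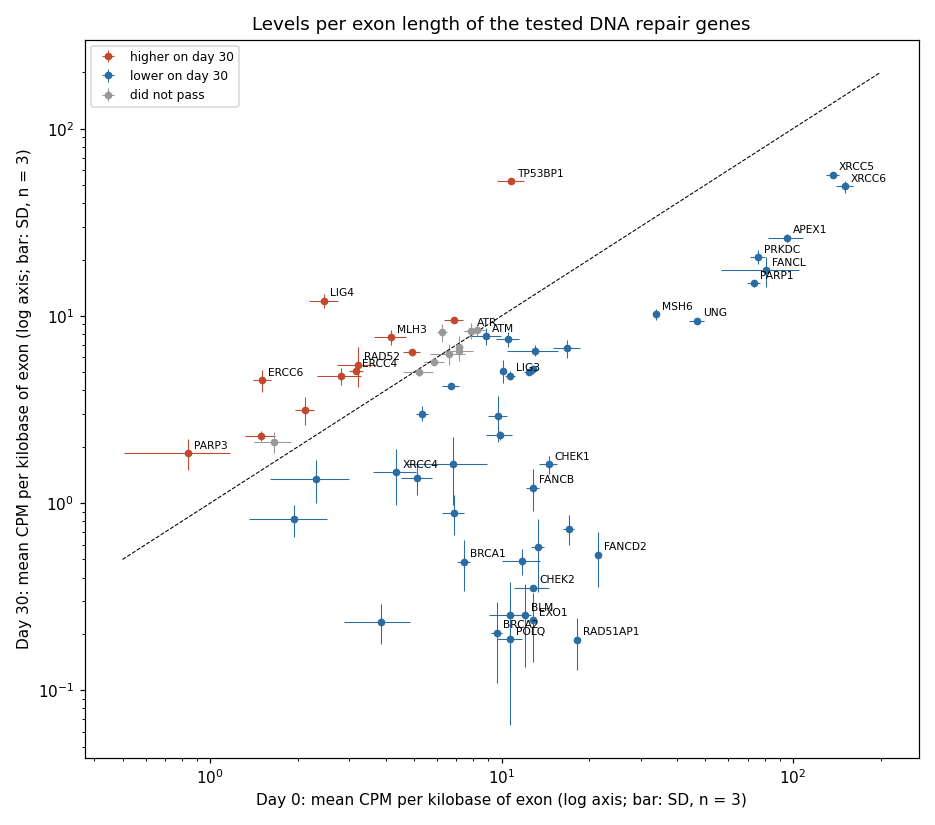
Mean CPM per kilobase of exon of 62 of the 65 tested repair genes on day 30 (y axis) against day 0 (x axis), both log axes; bars are SD (n = 3), colours the call, and the dashed line marks equal levels. XRCC5, XRCC6, APEX1 and PRKDC are at the upper right on both days, TP53BP1 stands above the line at 52.4 on day 30 against 10.8 on day 0, and RAD51AP1, BLM and BRCA2 are among the genes at the bottom, while RAD52 and PALB2 lie higher.

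Of 8 tested mismatch repair genes 6 fell, 1 rose and 1 did not pass, where 36.8% of all tested genes fell and 39.8% rose. The largest fall was that of the nuclease. EXO1, which digests the strand that carries the error and also trims broken ends, had 0.929, 0.619 and 1.40 CPM on day 30, against 52.7, 51.8 and 54.9 CPM on day 0 (log2 change -5.98 ± 0.22). The recognition proteins kept a larger part of their level. MSH6, of the complex that recognises single mismatches, had 111, 121 and 106 CPM on day 30, against 379, 373 and 364 CPM on day 0 (-1.81 ± 0.11). FBXO11, which rose by 1.13, covers 16.24% of the exon bases of MSH6 on the opposite strand. MSH3, of the complex for larger loops, had 19.0, 20.0 and 20.3 CPM on day 30, against 33.6, 29.3 and 31.6 CPM on day 0 (-0.76 ± 0.12). In MSH6 and MSH3 the groups were apart.

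The MutL genes, whose proteins act after recognition, were spread from -1.40 for PMS1 to 0.79 for MLH3. PMS2, the subunit that nicks the strand to be repaired, had 22.2, 22.9 and 21.7 CPM on day 30 and 22.0, 22.2 and 25.2 CPM on day 0 and did not pass (-0.15, adjusted p = 0.35). PMS2 shares 26.0% of its 31-base words with the pseudogene PMS2CL, so its reads are uncertain. MLH3, which is known for its role in meiotic crossing over, had 60.0, 61.7 and 70.8 CPM on day 30, against 38.7, 35.8 and 30.2 CPM on day 0 (log2 change 0.79 ± 0.12, adjusted p = 0.000116).

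The genes not tested were the meiotic MSH4, with 18.5 counts on day 30 and 10 on day 0, RAD51AP2, with 21 counts on day 30 and 10 on day 0, and MSH5 and FANCD2OS, which held no reads in any library. MSH5 lies in the MHC region of chromosome 6 and its neighbour CLIC1 held no reads either. FANCD2OS and RAD54L2 were matched by symbol alone, and RAD54L2, with 94.5, 98.0 and 108 CPM on day 30 and 105, 94.7 and 93.7 CPM on day 0, did not pass (log2 value -0.06 ± 0.10, adjusted p = 0.592).

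Levels per exon length changed their order between the days. The length is that of all annotated exons of a gene merged, which can exceed the length of the RNA made. Ranks between genes therefore depend on the annotation. Per kilobase of exon, XRCC5 had 56.8 CPM on day 30 and 137 on day 0, and XRCC6 had 49.2 on day 30 and 151 on day 0, so the order of these 2 differed between the days. TP53BP1 had rank 2 on day 30 with 52.4 ± 0.969 CPM per kilobase and rank 25 on day 0 with 10.8 ± 1.18 (SD, n = 3). LIG4 had rank 9 on day 30 with 12.0 ± 1.04 and rank 58 on day 0 with 2.46 ± 0.275. PRKDC had rank 5 on both days, with 20.6 ± 1.78 on day 30 and 75.8 ± 4.63 on day 0. ATM and ATR, at 7.79 ± 0.829 and 8.31 ± 0.826 on day 30, differed by less than their spread.

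Genes of the same pathways that the symbol rule does not take were read from lists of 109 partners. Of 106 tested, 68 fell and 12 rose, with a median log2 change of -0.99, beside 36.8% lower, 39.8% higher and a median of 0.08 over all tested genes. Counts of the single lists have as background the same 36.8% and 39.8%. Among partners in recombination and cross-link repair 22 of 34 fell and 5 rose. RMI2, of the complex that BLM works in, had the largest fall, to 0.425 ± 0.336 CPM on day 30 against 40.6 ± 6.03 CPM on day 0 (log2 change -6.50 ± 0.34), and BARD1, the partner of BRCA1, had -5.58 ± 0.18. The largest rise there was EME2, a nuclease subunit, at 0.75 ± 0.26. Among signalling partners 13 of 16 fell and 0 rose, with a median log2 change of -1.52. End joining partners fell in 8 of 15 cases and rose in 0, with MAD2L2, a subunit of the shieldin complex that acts with TP53BP1, lowest at -2.48 ± 0.12.

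The other partner lists each held falls and rises, again beside 36.8% lower and 39.8% higher among all tested genes. Of 13 base excision partners 10 fell and 1 rose. NEIL3, a glycosylase of dividing cells, fell by 6.10 on the log2 scale, while its relative NEIL1 rose to 15.1 ± 1.04 CPM on day 30 against 3.84 ± 1.35 CPM on day 0 (1.90 ± 0.25). Of 17 tested nucleotide excision partners 10 fell and 3 rose. RPA3, of the complex that coats single strands, was lowest at -3.07 ± 0.16. XPA, which verifies the lesion, rose to 20.6 ± 1.68 CPM on day 30 against 3.49 ± 0.717 CPM on day 0 (2.45 ± 0.21, adjusted p = 1.58e-06). Of 11 genes of translesion synthesis and direct reversal 5 fell and 3 rose, which is not far from the shares of all tested genes. NUDT1, which clears oxidised nucleotides, was lowest at -4.59 ± 0.24. REV3L, the catalytic subunit of polymerase zeta, rose to 201, 215 and 206 CPM on day 30 against 34.3, 33.2 and 34.2 CPM on day 0 (log2 change 2.52 ± 0.11, adjusted p = 6.96e-09). Of the 13 proliferation genes, all of which fell, CDK1 was lowest at -6.65 ± 0.21.

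**Figure D4:**
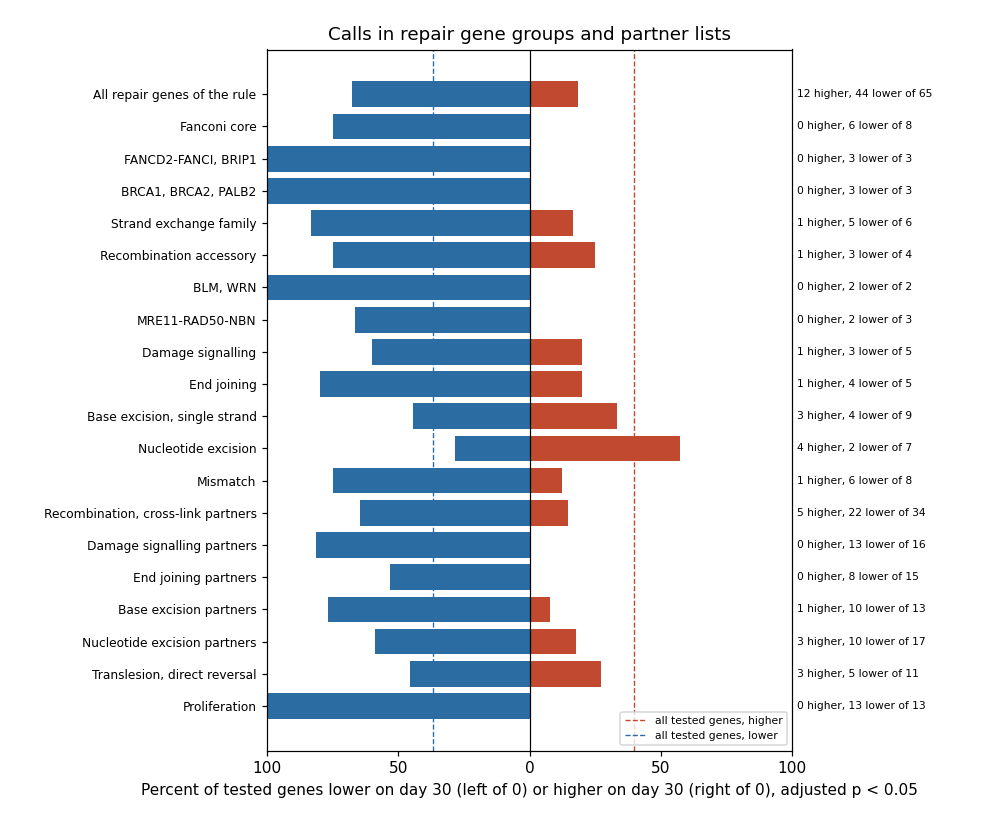
Percent of tested genes that were lower (left of 0) or higher (right of 0) on day 30 in the repair groups and partner lists; dashed lines mark the shares over all tested genes, 36.8% lower and 39.8% higher. Nucleotide excision is the group with more rises than falls, and the recombination and Fanconi groups lie at the left.

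Some repair genes start near another gene that runs the other way. Whether the genes of such a pair share a promoter was not tested. Within 1000 bases such protein-coding neighbours were found for 30 repair genes, and both genes were tested in 26 pairs. Member and neighbour both fell in 9 pairs and both rose in 2, while in 8 the repair gene fell and the neighbour rose, in 1 the reverse held, and in 6 at least 1 gene did not pass. Among all tested genes 36.8% fell and 39.8% rose, so falling and rising neighbours side by side set these pairs apart in no tested way. PRKDC and MCM4, a subunit of the replicative helicase, start 2 bases apart, and MCM4 had 22.4 ± 1.09 CPM on day 30 against 335 ± 26.5 CPM on day 0 (log2 change -3.99, with -1.98 for PRKDC). RAD51AP1 and BRCA1 fell by 6.78 and 4.08, while their neighbours C12orf4 and NBR1 rose by 0.48 and 0.29. Starts were taken as the outer ends of the gene entries, and genes can have others. BRCA1 also has a promoter window at 43125315 to 43125614, far from the start of NBR1 at 43170481. WRN fell by 1.42 while PURG, which starts 86 bases away, rose by 2.58. LIG4 rose by 2.21, and ABHD13, which starts 11 bases away, did not pass at -0.12.

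**Figure D5:**
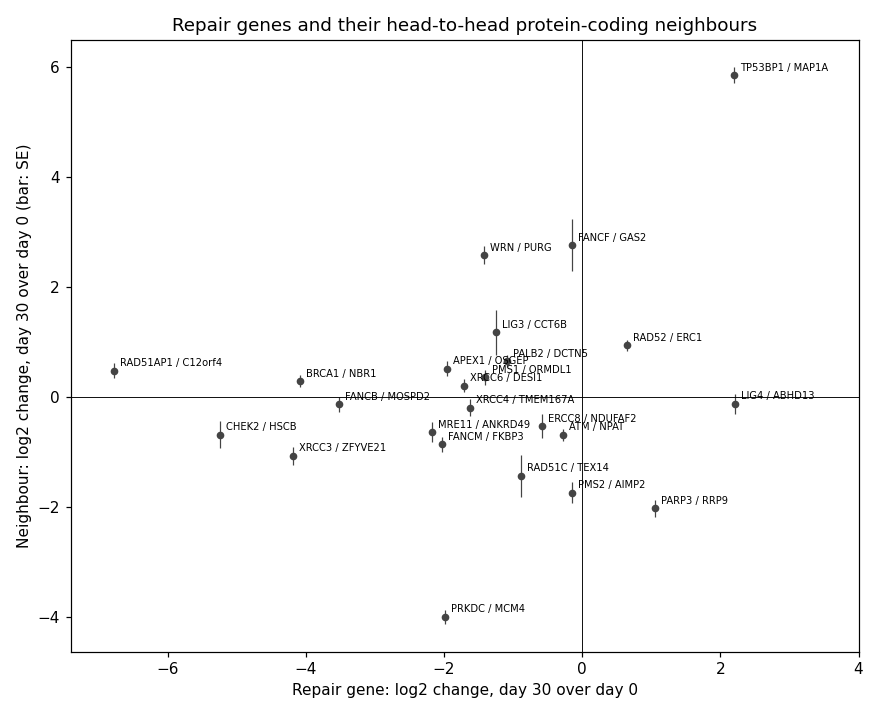
Log2 change (day 30 over day 0) of the repair gene (x axis) in 24 of the 26 pairs and of the protein-coding neighbour that starts within 1000 bases on the other strand (y axis; bars are SE). Pairs lie in all 4 quadrants, with TP53BP1 and MAP1A at the upper right, PRKDC and MCM4 at the lower left, and RAD51AP1 and C12orf4 at the far left just above 0.

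No source used here gives the strand setting of the counting, on which the values of overlapping genes on opposite strands can depend. XRCC3 has 76.68% of its exon bases over KLC1, a kinesin light chain gene with 243 ± 2.33 CPM on day 30 and 82.1 ± 8.53 CPM on day 0. XRCC3 had 1.34, 1.70 and 2.19 CPM on day 30, against 37.5, 25.6 and 23.9 CPM on day 0, so it was low in the libraries where KLC1 was high. A pseudogene that lies against 16.39% of the exon bases of ATR held 4 counts in all on day 30, against 2804 for ATR. The counts are estimates that can divide shared reads between genes, so these values do not tell which strand setting was used.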

How the data were processed

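The deposited table holds expected counts (estimated per gene, with fractions of reads), judged from the values; no source used here names the authors' aligner, counting program or annotation. Per the submitters' processing notes the build was hg38 and FastQC 0.11.9 was used. Libraries were made with a stranded total RNA kit, per the labels' protocols. Symbols, gene types, positions and exon lengths came from gene name tables and GENCODE release 29, which held 58298 of 61853 entries. Counts were rounded and tested in R 4.3.3 with edgeR 4.0.16 (filterByExpr, TMM, quasi-likelihood test, Benjamini-Hochberg over 18040 genes, threshold 0.05, 2-sided). In simulated data the test recovered 69.3% of 88 changes of 1 on the log2 scale and 89.3% of 112 changes of 2. It made 14 false calls among 16223 genes. Far fewer genes changed there than here, so the simulation does not check the test in the setting of these data. Standard errors are the absolute log2 change over the square root of F, and are approximate. CPM are scaled by library totals, log2 changes by TMM as well. The biological coefficient of variation was 0.153.

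Genes were named by role: all members, with library values for the largest fall and rise of a role, those that did not pass and a fixed set; of each partner list, the largest fall and rise. Promoter words and neighbours were added afterwards. Members and lists were chosen with earlier results of these data known. Some genes are counted in the totals but not reported here by name. Columns of values not used numbered 0. Alternatives were DESeq2 1.42.0, other scalings, filters, unrounded counts, a replicate block and leaving out each library. Same-numbered libraries of the days did not deviate together (correlations 0.075, -0.004 and -0.052).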

Additional observations from a re-analysis of the deposited data

How the results depend on the processing

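Of 65 tested repair genes, 55 kept their direction and their call under all 15 other settings, and 49 of the 56 that passed did so. The exceptions among those that passed included ATM, ERCC1, XRCC1, OGG1, PARP3 and RAD51D, each weaker under at least 1 setting. The counts of repair genes that fell and rose were 44 and 12, and stayed within 42 to 44 and 9 to 13 under the other settings. ATR changed sign, to 0.08 with library totals only, 0.05 with protein-coding genes only and 0.03 when the filter was stricter, and to 0.00 and 0.01 without day 30 replicate 1 or 2 (range -0.05 to 0.01 over the libraries left out). RAD54L2 changed sign, to 0.03 with library totals only and 0.01 with protein-coding genes only. The cause was not tested. POLB passed with library totals only (0.38, adjusted p = 0.0193), with protein-coding genes only (0.36, adjusted p = 0.0275) and under the stricter filter (0.34, adjusted p = 0.0324). Library totals in place of TMM put the median of all tested genes at 0.17 in place of 0.08. With the replicate number as a block, 43 repair genes fell and 11 rose, with ATM and ERCC1 no longer passing, and 6415 genes fell and 6921 rose in all. Replicate numbers did not pair the libraries. Leaving out 1 library gave 42 to 43 falls and 9 to 12 rises. Depth limits the genes near 0 on day 30, such as RAD51AP1 with 12 counts over that day's libraries.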
